A study of Mus musculus with 20 samples.

Results

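The Ikaros family consists of zinc finger transcription factors that bind DNA through fingers near the amino end and pair with each other through fingers near the carboxyl end. Its 5 members, Ikzf1 (Ikaros), Ikzf2 (Helios), Ikzf3 (Aiolos), Ikzf4 (Eos) and Ikzf5 (Pegasus), were taken by symbol from the count tables and are 5 of the 25042 genes with a transcript in the cells kept here. Family proteins recruit NuRD and other co-repressor complexes to the genes they bind. Ikaros is needed for the development of lymphocytes, and Aiolos is best known from B cells and mature lymphocytes. In the thymus, Helios is known from cells that receive strong TCR signals and, together with Eos, from regulatory T cells.

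Single IELPs, the thymic precursors of unconventional intraepithelial lymphocytes, had been sorted from TCRβ+ thymocytes lacking CD4 and CD8, by CD122 and by T-bet, read through a ZsGreen reporter (TBGR), and sequenced by CEL-Seq2, which counts molecules at the 3′ end of transcripts. The sorted populations were compared to follow transcription as IELPs gain CD122 and then T-bet, and the genotypes to see what differs when T cells lack C-myc. Cells came from 3 mice, 1 per genotype: a TBGR mouse of 4 weeks, labelled wild type, a TBGR C-myc fl/fl mouse of 2 weeks, with floxed C-myc, and a TBGR C-myc D/DCd4 mouse of 2 weeks, in which a Cre driven by Cd4 deletes C-myc from T cells. Cells without T-bet are called CD122- and CD122+ here, and the CD122+ cells with intermediate or high T-bet are called T-bet int and T-bet high. The TBGR mouse gave 2 libraries of 96 wells for each of these 4 populations, and the C-myc D/DCd4 mouse 2 for each of the first 2. The C-myc fl/fl mouse gave 4 libraries that share CD122- with CD122+ cells and 4 that share T-bet int with T-bet high, 48 wells of each. The design text of the series calls the cells NK1.1+, whereas the paper calls them NK1.1-. The design text also gives the mice of the second experiment as 1 TBGR and 1 TBGR C-myc D/DCd4 mouse, whereas the labels give a C-myc fl/fl mouse. For this experiment the paper's results text writes of mice, in the plural, of 2 to 3 weeks, while its methods and the labels give 2 weeks. Mouse, age and genotype cannot be told apart between the TBGR mouse and the other mice, so genotypes were compared between the C-myc fl/fl and C-myc D/DCd4 mice, and there mouse and genotype cannot be told apart either.

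Of 1920 wells, 1413 held at least 2000 transcripts without mitochondrial genes and spike-ins and were kept, 678 of the TBGR, 470 of the C-myc fl/fl and 265 of the C-myc D/DCd4 mouse. The median number of transcripts per kept cell was 5118, 7073.5, 6348 and 4309 in the 4 TBGR populations from CD122- to T-bet high. In the same order it was 5890.5, 5984, 6023.5 and 5935.5 in the C-myc fl/fl mouse, and in the C-myc D/DCd4 mouse 4238.5 and 4921. The shallowest TBGR library, the second of T-bet high cells, kept 55 cells with a median of 3805 transcripts, against 92 cells and 4835 in the first. Levels are transcripts summed over cells per 1000000 transcripts of all genes (CPM), with exact 95% Poisson intervals that cover counting error only, and ratios are log2 ratios of such sums. Since each molecule is counted at its 3′ end, levels of different genes are set side by side without division by length. Libraries of a population are parts of 1 sort from 1 mouse. Their spread covers handling and which cells were drawn, not differences between mice, so no test between groups was run. Numbers of libraries follow their labels. A gene was called higher or lower where its log2 ratio was at least 1 in size and no library of the 2 groups overlapped, among genes with at least 100 transcripts in the 2 groups together. Of the 190 pairs of libraries, 90 use the same 96 barcodes and 100 have none in common, so a barcode does not mark a cell across libraries.

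The labels were first checked on the genes they name. Myc was detected in both C-myc genotypes, at 63.0, 14.0, 62.3 and 24.4 CPM in the CD122- libraries of the C-myc fl/fl mouse and at 16.7 and 30.0 CPM in those of the C-myc D/DCd4 mouse. In CD122+ cells Myc reached 73.8, 125, 135 and 10.6 CPM in the C-myc fl/fl and 44.5 and 9.96 CPM in the C-myc D/DCd4 libraries. Pooled levels in the knockout were lower in both populations, with libraries that overlapped, and in CD122- cells with overlapping intervals too. TBGR CD122- cells, with C-myc intact, were at 13.3 CPM (7.06 to 22.7), below the 24.8 CPM of the knockout (14.9 to 38.8), with overlapping intervals. TBGR CD122+ cells were at 53.8 CPM (42.6 to 67.0), above the 25.1 CPM of the knockout (14.9 to 39.7), with libraries apart. The sources used here do not give the position of the deletion, and a 3′ tag outside the deleted part would not check it. Il2rb, which encodes CD122, was at 7.14 CPM in CD122-, 269 in CD122+, 398 in T-bet int and 515 in T-bet high cells of the TBGR animal. Tbx21, which encodes T-bet, was at 0 in CD122- cells and at 1.36, 48.0 and 165 CPM in the following TBGR populations, and at 0, 6.60, 18.8 and 60.0 CPM in the C-myc fl/fl mouse. The 165 CPM pool libraries at 214 and 64.3 CPM, and the second of these lies within the 25.0 to 75.6 CPM of the C-myc fl/fl T-bet high libraries. Pooled levels of Il2rb and Tbx21 follow the gates in both mice. Cd4 does not, as TBGR CD122- cells, sorted as lacking CD4, held 585 CPM, with a transcript in 164 of 174 cells. It was at 59.9 CPM in TBGR CD122+ cells, and at 96.3 and 41.8 CPM in CD122- cells of the C-myc fl/fl and C-myc D/DCd4 mice. Cd8a and Cd8b1 were at 27.5 and 55.1 CPM in TBGR CD122- cells. Klrb1c, which encodes NK1.1, was at 0 in CD122- cells of the TBGR mouse but at 563 CPM in its T-bet high cells and at 81.5 CPM in those of the C-myc fl/fl mouse. Cd3e was detected in all 10 groups, at 195 CPM or more, and of the names looked for Trbc2, Tcrg-C2, Lyz2 and Igll1 are not listed in the tables.

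Markers of other cell types, most of which the gates are meant to leave out, were summed as lists. The regulatory T cell list (Foxp3, Il2ra, Ctla4 and Ikzf4 itself) was highest in CD122+ cells of the TBGR mouse, at 146 CPM with libraries at 80.0 and 221, and all 4 genes were present. A Foxp3 transcript was found in 11 and 31 of the cells in those 2 libraries. The B cell list reached 124 CPM in CD122+ cells of the C-myc D/DCd4 mouse, at 19.1 and 207 in its libraries, led by Ms4a1 at 51.6 CPM. These libraries held 6 and 83 transcripts of the list. Only 1 of 58 and 1 of 79 cells had at least 2 of them. In the TBGR groups the list did not exceed 15.7 CPM, and Ms4a1 was at 0 there. γδ T cell genes summed to 509 CPM in CD122- and 1337 CPM in TBGR T-bet high cells, although Trdc itself was at 0 in the latter. Trdc transcripts were found in 30 of 58 and 29 of 70 CD122- cells of the C-myc D/DCd4 mouse, and in 11, 5, 7 and 6 cells of the corresponding C-myc fl/fl libraries. Genes of CD4+CD8+ double positive thymocytes were highest in CD122- cells, at 708 CPM in the TBGR, 275 in the C-myc fl/fl and 509 CPM in the C-myc D/DCd4 mouse, led by Cd4 in the first 2 and by Dntt in the last. The mature T-bet+ list was at 170.3, 236, 798 and 6545 CPM along the TBGR populations. NKT cell genes reached 616 CPM in TBGR T-bet high cells, most of it Klrb1c. Most of the myeloid list was Cst3, at up to 214 CPM, with Lyz2 not listed, and most of the NK and innate lymphoid list was Gata3, with Ncr1 at 0 in the TBGR and C-myc D/DCd4 groups. Ikaros family levels without cells carrying B cell, Foxp3 or Trdc transcripts are given below or with the alternatives where a call changes, and these alternatives were chosen after seeing the data.

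Ikzf2 spanned the widest range of CPM between populations. In the TBGR mouse it stood at 254 and 427 CPM in the 2 CD122- libraries, 1232 and 1469 in CD122+, 1058 and 1058 in T-bet int and 91.2 and 94.2 CPM in T-bet high cells. No libraries of different TBGR populations overlapped. The C-myc fl/fl libraries gave 354, 423, 133 and 73.2 CPM in CD122- cells, 576, 797, 983 and 424 in CD122+, 656, 392, 666 and 424 in T-bet int and 237, 256, 253 and 259 CPM in T-bet high cells. The rise and fall over the populations had the same order as in the TBGR mouse but a smaller range, and CD122+ and T-bet int libraries overlapped. In the C-myc D/DCd4 mouse Ikzf2 was at 381 and 356 CPM in CD122- and at 1232 and 1593 CPM in CD122+ cells.

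Pooled over libraries, the order of Ikzf2 levels began with C-myc D/DCd4 CD122+ cells at 1435 CPM (95% interval 1348 to 1525) and TBGR CD122+ cells at 1344 CPM (1285 to 1404), which overlap. TBGR T-bet int cells followed at 1058 CPM (1002 to 1115). Next were C-myc fl/fl CD122+ cells at 742 CPM (682 to 806) and T-bet int cells at 522 CPM (475 to 573), which differ by more than counting error but have overlapping libraries. The CD122- cells of the 3 mice came next, at 366 CPM in the C-myc D/DCd4 (324 to 411), 342 in the TBGR (306 to 380.3) and 254 CPM in the C-myc fl/fl mouse (221 to 291), where libraries overlapped with those of the other mice. C-myc fl/fl T-bet high cells, at 250.1 CPM (214 to 290.1), were level with the last of these. TBGR T-bet high cells came last at 92.2 CPM (71.2 to 118).

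Ikzf1 was present in every group within a narrow range of levels. Its libraries in the TBGR mouse gave 546 and 364 CPM in CD122-, 333 and 321 in CD122+, 380.3 and 408 in T-bet int and 361 and 269.9 CPM in T-bet high cells. Pooled levels in the C-myc fl/fl mouse were lower, from 255 CPM in CD122+ to 303 CPM in T-bet int cells. Its libraries there spanned 165 to 364 CPM and overlapped between all 4 populations. In the C-myc D/DCd4 mouse Ikzf1 was at 435 and 429 CPM in CD122- and 279 and 383 CPM in CD122+ cells. The 10 pooled levels therefore lay between 255 and 454 CPM, while those of Ikzf2 lay between 92.2 and 1435 CPM.

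Ikzf3 was scarce in CD122- cells and increased towards T-bet high cells of the TBGR animal. There it was at 8.27 and 16.1 CPM in CD122-, 42.6 and 64.9 in CD122+, 92.4 and 71.2 in T-bet int and 117 and 85.7 CPM in T-bet high cells. The last 2 populations overlapped. The C-myc fl/fl libraries of CD122- cells held 2, 1, 0 and 0 Ikzf3 transcripts, a pooled level of 3.70 CPM (0.764 to 10.8). The other populations of that mouse held pooled levels of 55.4, 85.8 and 67.2 CPM. T-bet int cells were highest, but their interval and libraries overlapped with those of T-bet high cells. The C-myc D/DCd4 mouse had more Ikzf3, 26.8 and 32.2 CPM in CD122- and 114 and 132 CPM in CD122+ cells.

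Ikzf4 took the opposite course in the TBGR mouse only from CD122+ cells onward. It was at 59.9 and 50.3 CPM in CD122-, 50.3 and 72.1 in CD122+, 13.6 and 31.6 in T-bet int and 12.7 and 4.28 CPM in T-bet high cells. The T-bet high values rest on 6 and 1 transcripts. Of the C-myc fl/fl mouse, library 4 of the cells without T-bet held the highest level in both of its populations, 109.8 and 106 CPM, against 24.2 to 69.8 and 17.8 to 45.1 CPM in the other 3 libraries. No order of populations can be read from Ikzf4 in this mouse. In the C-myc D/DCd4 mouse it was at 16.7 and 47.2 CPM in CD122- and 95.3 and 57.3 CPM in CD122+ cells.

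Ikzf5, the least studied member, was low in each group. Pooled levels in the TBGR populations were 55.1, 51.1, 58.0 and 63.8 CPM with overlapping libraries. For the C-myc fl/fl mouse they were 21.0, 34.3, 45.9 and 34.3 CPM, with CD122- libraries at up to 31.1 and T-bet int libraries from 31.6 CPM upwards, and in the C-myc D/DCd4 mouse 43.1 and 58.6 CPM. The plot of member levels by library shows that the wide movement of Ikzf2 was not shared by Ikzf1 or Ikzf5, and that Ikzf3 and Ikzf4 moved at much lower levels.

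**Figure D1:**
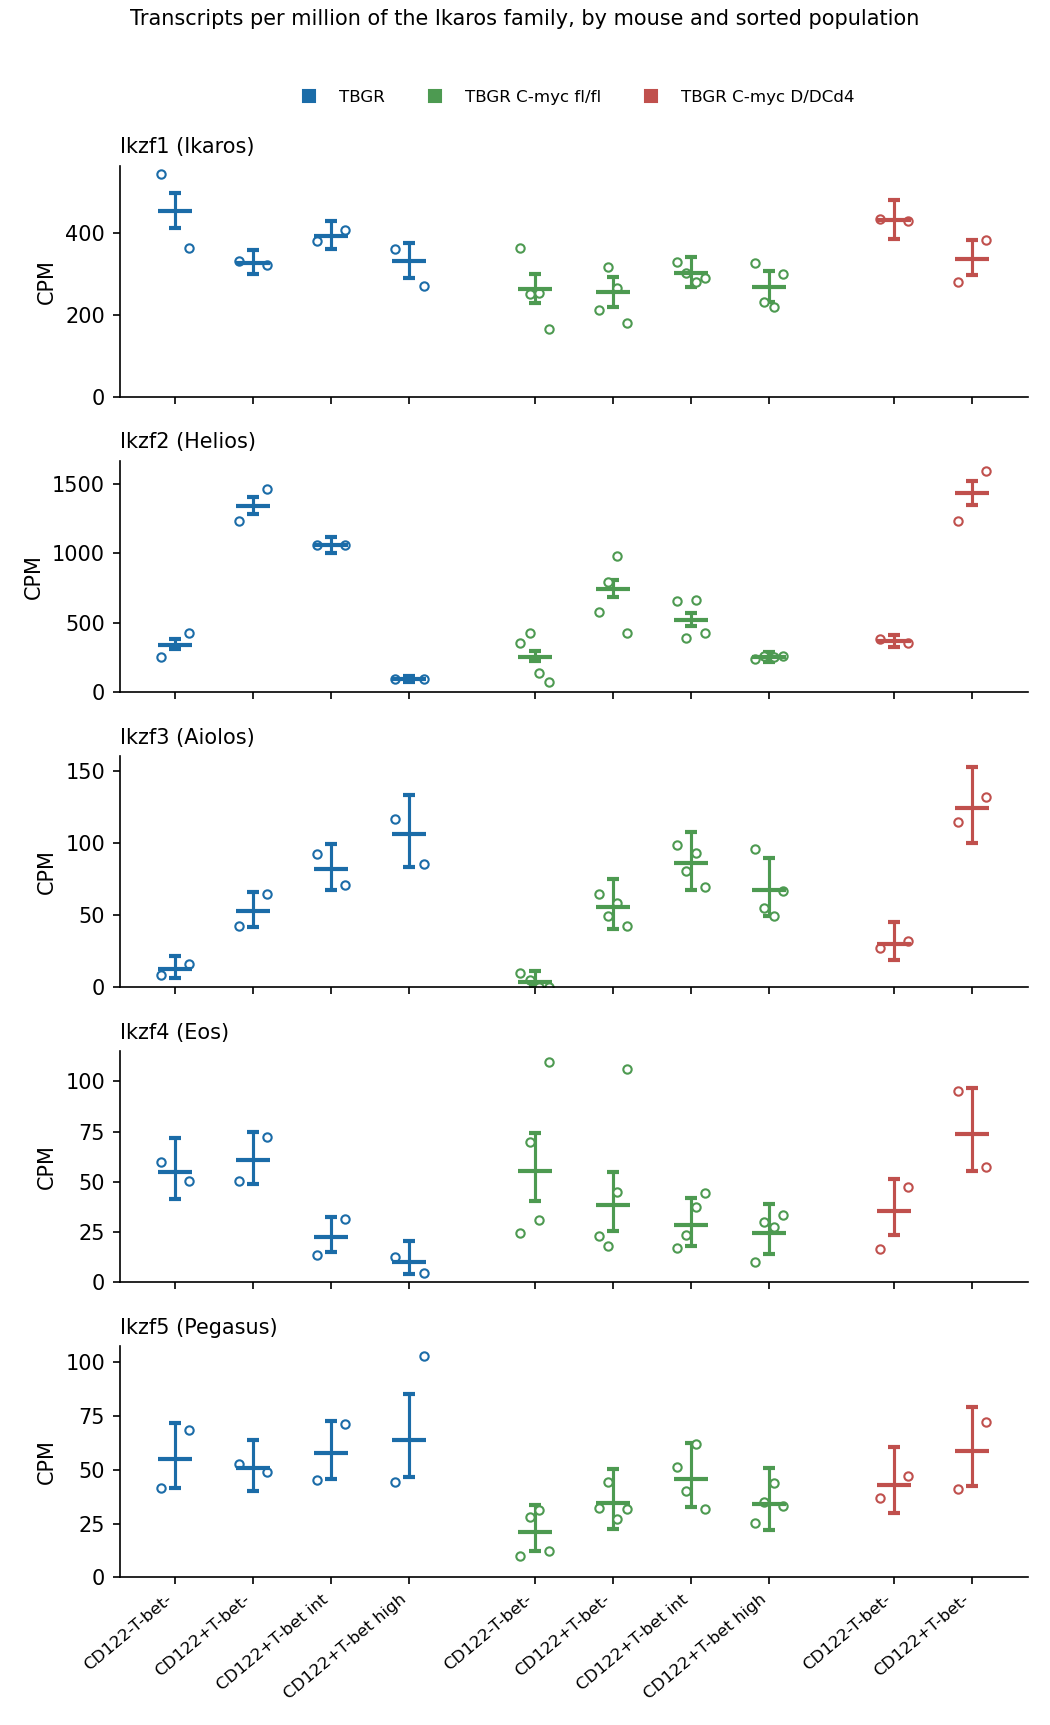
Level of each Ikaros family member in CPM (vertical axes, which differ between panels) in the 10 groups of mouse and sorted population; bars are pooled levels with exact 95% Poisson intervals and open circles are single libraries. Ikzf2 runs from 92.2 to 1435 CPM and Ikzf1 from 255 to 454 CPM.

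A second view sets the members against each other, which does not depend on the scaling to all genes. In the TBGR mouse Ikzf2 made up 37.2% of family transcripts in CD122- cells (95% binomial interval 34.1 to 40.5; libraries 28.0% and 46.1%), 73.2% in CD122+ (71.5 to 74.9), 65.5% in T-bet int (63.4 to 67.6) and 15.3% in T-bet high cells (12.0 to 19.1). Ikzf1 had the largest pooled share at both ends, with 49.4% of family transcripts in CD122- and 54.8% in T-bet high cells, and held 17.8% and 24.4% in between. In CD122- cells this lead came from library 1, with 264 Ikzf1 and 123 Ikzf2 transcripts, as library 2 had 181 and 212. Ikzf3 grew from 1.33% of the family in CD122- cells to 17.6% in T-bet high cells, where it had 75 transcripts and Ikzf2 65, with overlapping intervals and an order that differs between the libraries (55 against 43, and 20 against 22). The family as a whole was at 918, 1836, 1614 and 603 CPM in these populations, so the fall of Ikzf2 in T-bet high cells was not made up by its relatives. Ikzf2 in the C-myc fl/fl mouse formed 42.6% (38.1 to 47.1), 66.0% (62.7 to 69.1), 53.0% (49.5 to 56.4) and 38.9% (34.4 to 43.6) of the family. Libraries of its CD122- cells differed widely, at 46.5%, 54.5%, 29.7% and 20.3%. The C-myc D/DCd4 mouse had 40.4% in CD122- (36.7 to 44.2) and 70.7% in CD122+ cells (68.3 to 73.0). Ikzf2 was thus the leading member in CD122+ cells of all 3 mice and in T-bet int cells of both mice that have them. In CD122- cells of the C-myc fl/fl and C-myc D/DCd4 mice Ikzf1 and Ikzf2 had overlapping shares, and their order turned without cells carrying Trdc, to 118 Ikzf1 and 152 Ikzf2 transcripts and to 156 and 158.

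**Figure D2:**
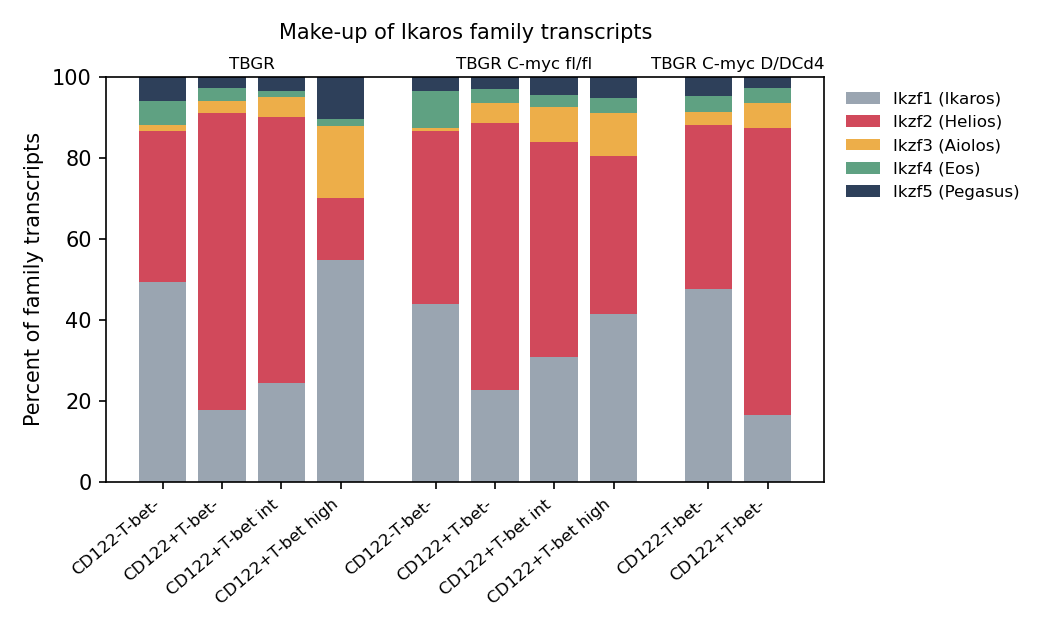
Share of Ikaros family transcripts held by each member, in percent (vertical axis), in the 10 groups of mouse and sorted population; each bar is the sum of kept cells of a group. Ikzf2 forms the largest share in CD122+ cells of the 3 mice and 15.3% in T-bet high cells of the TBGR animal.

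The step from CD122- to CD122+ cells was compared within each mouse. In the TBGR mouse Ikzf2 rose by a log2 ratio of 1.97 (95% interval 1.81 to 2.15), or 3.93-fold, with all libraries apart. It was 1 of 4 members with at least 100 transcripts and the 1 that was called, in a comparison where 11.4% of 4057 genes were called, 368 higher and 96 lower. The median log2 ratio of all genes was 0.28 here, and relative to it Ikzf2 rose by 1.70. Ikzf3 had a log2 ratio of 2.07 (1.23 to 3.13) from 12 and 78 transcripts, just short of the minimum, also with libraries apart, and 3.53 when cells were thinned to 2000 transcripts. Ikzf1 stood lower in CD122+ cells, at a log2 ratio of −0.47 (−0.66 to −0.28), which is −0.75 once the median is taken off, and its libraries did not overlap. Ikzf4 had a log2 ratio of 0.13 that turned to −0.15 relative to the median, and that of Ikzf5 was −0.11, both with overlapping libraries. Without the cells that held a Foxp3 transcript, Ikzf2 was at 319 CPM in CD122- and 1294 CPM in CD122+ cells.

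In the C-myc D/DCd4 mouse the same step gave a log2 ratio of 1.97 for Ikzf2 (1.78 to 2.17) and of 2.02 for Ikzf3 (1.37 to 2.78). Both rose, and they were 2 called of 3 members passing, where 19.3% of 2106 genes were called, 265 higher and 142 lower. The Ikzf3 call rests on 112 transcripts in all, and without library 1 or 2 of CD122+ or library 2 of CD122- cells the gene fell under the minimum, with log2 ratios of 2.12, 1.92 and 2.13. It also fell under the minimum, at 2.38, without cells carrying Trdc. Cells with at least 2 transcripts of the B cell list held 2 of its transcripts in CD122+ cells, and Ikzf3 was at 117 and 131 CPM in the libraries without them. Ikzf4 had a log2 ratio of 1.06 (0.37 to 1.79) with libraries apart, from 27 and 53 transcripts, and 0.63 to 2.02 when 1 library was left out. Ikzf1 stood lower, with a log2 ratio of −0.35 (−0.60 to −0.11) and no overlap. The median of all genes, 0.05, moved little.

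The C-myc fl/fl mouse allows this step to be read within each library, since both populations shared 4 libraries. Ikzf2 was higher in CD122+ cells in each of them, by log2 ratios of 0.70, 0.91, 2.86 and 2.49. The pooled log2 ratio was 1.54 (1.31 to 1.78), which was called, 1 of 2 members passing, against 6.61% of 1771 genes called, 105 higher and 12 lower. This call is marginal, because the highest CD122- library had 423 and the lowest CD122+ library 424 CPM. The median of all genes moved by 0.55, and with it taken off Ikzf2 came to lie just below the limit of 1. Ikzf3 had a log2 ratio of 3.70 (2.26 to 6.24), from 3 and 42 transcripts, with values of 2.46, 2.88, 4.78 and 3.97 within the 4 libraries. For Ikzf1 the libraries went both ways, at −0.77, 0.33, 0.07 and 0.15, and the pooled value was −0.05, or −0.59 relative to the median. Ikzf4 at −0.53 and Ikzf5 at 0.70 overlapped between libraries and did not reach 100 transcripts. The Ikzf1 sign rests on library 1, without which it was 0.25, and it was 0.26 without cells carrying Trdc. In all 3 mice, then, Ikzf2 and Ikzf3 had higher pooled levels in CD122+ cells. Ikzf1 was lower in the 2 mice with 2 libraries per population and undecided in the C-myc fl/fl mouse with 4. It was called in none of them.

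From CD122+ to T-bet int cells of the TBGR mouse Ikzf2 moved by less than at the step before, but Ikzf4 by more. Ikzf4, known as a partner of Foxp3 in regulatory T cells, fell by 1.42 on the log2 scale in the TBGR mouse, with an interval of −2.09 to −0.81, from 60.6 to 22.4 CPM. It was the 1 member called of 5 passing, where 4.77% of 4637 genes were called, 96 higher and 125 lower. The call depended on single libraries, since without library 1 of T-bet int cells the log2 ratio was −0.91, and without library 1 or 2 of CD122+ or library 2 of T-bet int cells (−1.67, −1.16 and −2.08) the gene had too few transcripts. It also fell under the minimum without cells carrying Foxp3, at a log2 ratio of −1.77. Ikzf2 had a log2 ratio of −0.35 (−0.45 to −0.25), with lower libraries. Ikzf1 at 0.27 (0.08 to 0.45) and Ikzf3 at 0.62 (0.19 to 1.07) had higher libraries in T-bet int cells, and Ikzf5 at 0.18 overlapped. These populations of the C-myc fl/fl mouse came from different libraries, and 0 of 3 members passing were called, against 0.408% of 2205 genes. Ikzf2 was again lower, at −0.51 (−0.69 to −0.33), but its libraries overlapped. Ikzf3 again had higher libraries throughout, at 0.62 (0.06 to 1.21).

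Among member ratios from at least 100 transcripts, the largest in size was found at the step from T-bet int to T-bet high in the TBGR mouse. There Ikzf2 fell by 3.51 on the log2 scale, with an interval of −3.90 to −3.16, which is 11.4-fold from 1058 to 92.2 CPM. It was the 1 member called of 4 passing, where 14.7% of 3524 genes were called, 199 higher and 319 lower, or 269 and 254 with the median taken off. The median of all genes was −0.13 and the log2 ratio relative to it −3.38. The log2 ratio of Ikzf1 was −0.25 (−0.48 to −0.03) with lower libraries, and −0.12 after taking off the median. Ikzf3 at 0.38 (−0.07 to 0.82) and Ikzf5 at 0.14 overlapped, and Ikzf4 at −1.10 (−2.61 to 0.05) had lower libraries, with 36 transcripts in all, 29 and 7. A fall of this size was therefore found in Ikzf2 and not in Ikzf1, Ikzf3 or Ikzf5, with or without the median taken off. The interval of Ikzf4 does not reach that of Ikzf2 either, though it rests on few transcripts. Leaving out 1 library gave −1.83 to −0.44 for Ikzf4, 0.09 to 0.57 for Ikzf3 and −0.36 to 0.85 for Ikzf5.

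In the C-myc fl/fl mouse the same step fell by 1.06 for Ikzf2 on the log2 scale, with an interval of −1.32 to −0.81. Within the 4 shared libraries the log2 ratios were −1.46, −0.61, −1.39 and −0.70. This was the 1 call among 3 members passing, where 3.65% of 2027 genes were called, 38 higher and 36 lower. The call was lost without library 1 (−0.88) or library 3 (−0.97), and relative to the median of all genes (−0.88), which moved by −0.18. Ikzf3 had a log2 ratio of −0.35 (−0.91 to 0.20), and of −0.04, −0.51, −0.88 and −0.04 within the shared libraries, so that neither mouse shows a direction beyond its interval. For Ikzf1 the log2 ratio was −0.18, the same as the median. The difference in size between the mice was not tested. Beside it stand the mature T-bet+ list at 3079 CPM in T-bet high cells of the C-myc fl/fl mouse, against 6545 CPM in the TBGR mouse, and Tbx21 at 60.0 against 165 CPM, the latter resting on library 1 as noted above. Their part in it was not tested.

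**Figure D3:**
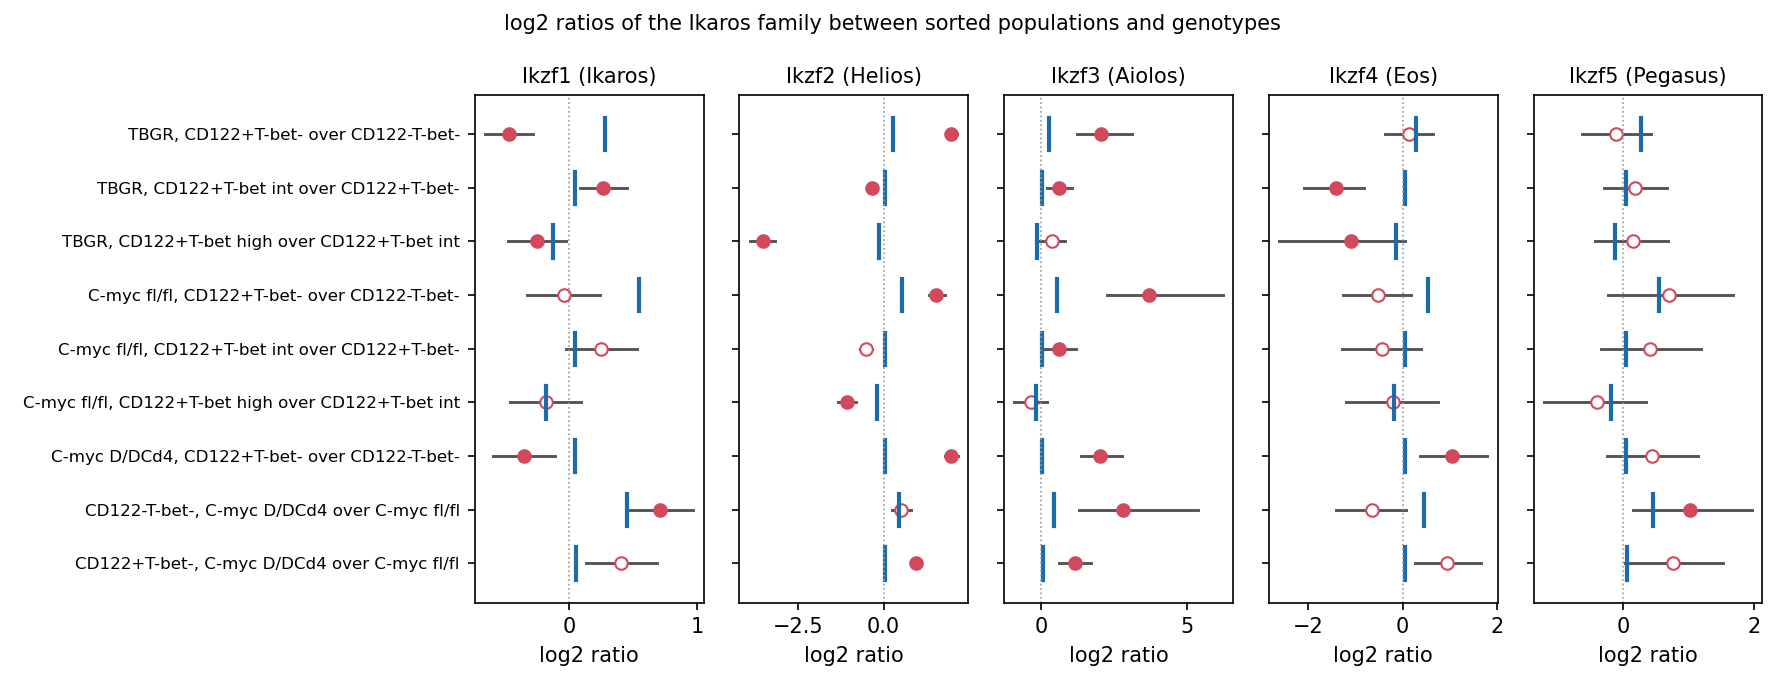
Log2 ratio of each member (horizontal axes, which differ between panels) in the 9 comparisons; dots are ratios of pooled levels, filled where the libraries of the 2 groups do not overlap, grey lines are 95% intervals and blue ticks the median log2 ratio of all genes with at least 100 transcripts. The fall of Ikzf2 by 3.51 in TBGR T-bet high cells lies farthest from the blue tick among values from at least 100 transcripts.

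Genotypes were compared in the populations without T-bet, to see whether the family differs when C-myc is deleted. In CD122- cells the median of all genes was 0.45 higher in the C-myc D/DCd4 mouse, so ratios are given with it taken off as well. No member was called, 0 of 2 passing, against 12.8% of 1793 genes, 222 higher and 7 lower, or 49 and 27 with the median taken off. Ikzf1 was at 435 and 429 CPM in the knockout against 165 to 364 CPM in the C-myc fl/fl libraries, with a ratio of 0.71 (0.46 to 0.97) on the log2 scale, of which 0.26 is left beyond the median. Without cells carrying Trdc it was called, at 1.06, where the median itself was 0.41. A list of 6 genes of the sorted T cells, led by Trbc1, was also higher in the knockout, at 4950 against 3127 CPM. In CD122+ cells this list was at 4940 against 3731 CPM, and its libraries did not overlap in either population. Its part in the member ratios was not tested. Ikzf2 had a log2 ratio of 0.52 (0.26 to 0.79), 0.07 relative to the median, with overlapping libraries. Ikzf3 gave a log2 ratio of 2.83 (1.29 to 5.40) from 3 and 23 transcripts, with higher libraries in the knockout, and Ikzf5 one of 1.02 (0.15 to 1.98) from 17 and 33. Ikzf4 at −0.64 overlapped. With the median taken off, these 3 values were 2.38, 0.57 and −1.10. Leaving out 1 library gave 2.36 to 3.63 for Ikzf3 and −1.61 to −0.22 for Ikzf4.

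In CD122+ cells Ikzf3 rose in the C-myc D/DCd4 mouse by a log2 ratio of 1.15 (0.62 to 1.73), from 64.5, 49.0, 58.6 and 42.4 CPM in the C-myc fl/fl libraries to 114 and 132 CPM. It was the 1 member called of 3 passing, where 21.3% of 2113 genes were called, 268 higher and 183 lower, so the count of members is near the background. The Ikzf3 call was lost with a minimum of 3000 transcripts per cell (0.95), and without either CD122+ library of the knockout the gene dropped under the minimum (1.25 and 1.05). Ikzf2 stood higher in both knockout libraries, at 1232 and 1593 CPM against 424 to 983 CPM, a log2 ratio of 0.95 (0.80 to 1.10) that stayed short of the limit. It passed the limit without library 3 of the C-myc fl/fl mouse (1.16), without library 1 of the knockout (1.10), without cells carrying Trdc (1.06) and when each cell was thinned to 2000 transcripts (1.08). Ikzf1 at 0.41, Ikzf4 at 0.94 and Ikzf5 at 0.76 had overlapping libraries. All 5 ratios were above 0, with a median of all genes of 0.06. In each knockout library 1 cell held at least 2 of the B cell transcripts noted above, and Ikzf3 without these cells was at 117 and 131 CPM. Set against the TBGR mouse, whose age differs, the knockout level of Ikzf2 in CD122+ cells (1435 CPM) was no higher beyond counting error than the TBGR level (1344 CPM), while the C-myc fl/fl level was 742 CPM.

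Cells were also thinned to 2000 transcripts each, and cells with at least 1 transcript of a member were counted. At such low counts this share largely follows the mean level. It therefore cannot separate more expressing cells from more transcripts in each cell. In the TBGR mouse Ikzf2 was found in 29.9% of CD122-, 83.3% of CD122+, 74.9% of T-bet int and 15.6% of T-bet high cells. Its libraries in that order gave 21.8% and 37.9%, 77.7% and 89.1%, 73.6% and 76.2%, and 12.0% and 21.8%. In the C-myc fl/fl mouse the shares were 28.3%, 60.7%, 54.3% and 30.4%, and in the C-myc D/DCd4 mouse 40.6% and 84.7%. Without thinning the CD122+ shares were 95.7% in the TBGR, 97.8% in the C-myc D/DCd4 and 81.1% in the C-myc fl/fl mouse. Ikzf1 was found in 57.5%, 47.3%, 50.9% and 40.8% of cells along the TBGR populations, a much flatter course. Ikzf3 was found in 0.575%, 9.14%, 12.3% and 21.1% of them, and in 4.69% and 20.4% in the C-myc D/DCd4 mouse. Without thinning, where depth differs between populations, Ikzf3 was found in 5.17%, 29.6%, 33.3% and 32.7% of TBGR cells. Ikzf4 was found in 10.9%, 11.3%, 4.09% and 2.04%, and Ikzf5 in 9.20%, 11.3%, 12.3% and 12.2% of TBGR cells. Cells without a transcript of a member at this depth, Ikzf2 included, are not shown to lack it.

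The same thinned cells were then grouped by their number of Ikzf2 transcripts. Of 186 CD122+ cells of the TBGR mouse, 61 had 3 to 5 and 22 more than 5 Ikzf2 transcripts after thinning, and of 171 T-bet int cells 52 and 13. Of 147 T-bet high cells none had more than 2. The 23 T-bet high cells with a transcript thus held at most 2 each, and the mean over all 147 cells was 0.184. By contrast, 8 of 112 T-bet high cells of the C-myc fl/fl mouse had 3 to 5 transcripts and 1 had 6. The variance of Ikzf2 over its mean was 3.05 in CD122- cells of the TBGR mouse, where 4 of 174 cells had more than 5 transcripts and 122 had none, and 1.12 in T-bet high cells. It was highest, at 3.33, in CD122- cells of the C-myc D/DCd4 mouse. For Ikzf1 this quotient ran from 0.808 in CD122+ cells of the C-myc fl/fl mouse to 1.32 in CD122- cells of the TBGR mouse. It was below that of Ikzf2 in each group but TBGR T-bet high cells, where it was 1.25. The plot of cells by Ikzf2 transcripts shows a minority of cells with much Ikzf2 among CD122- cells of each mouse.

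**Figure D4:**
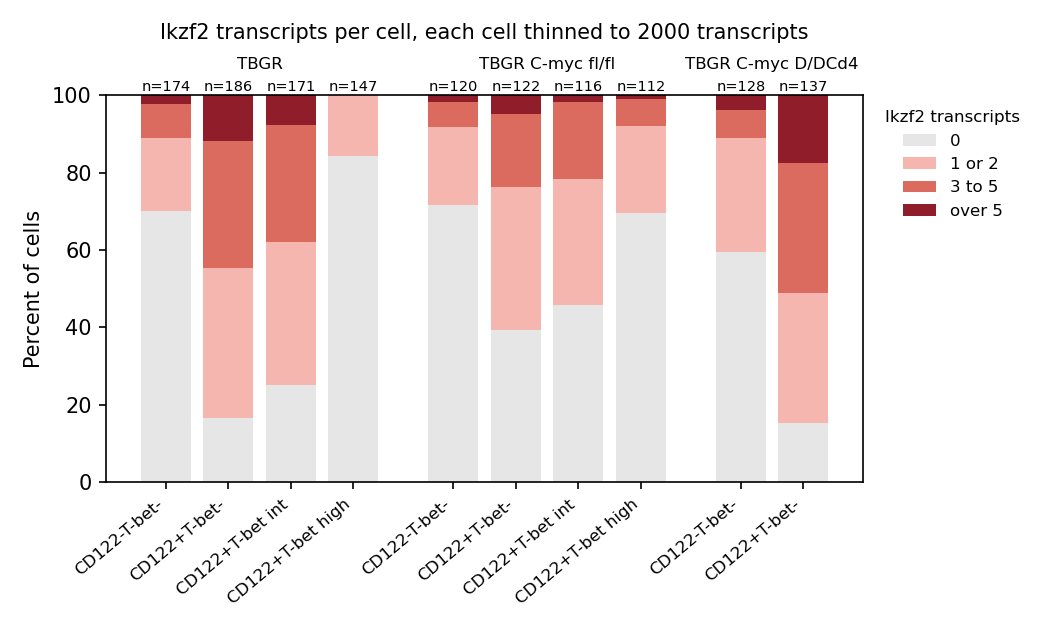
Percent of cells (vertical axis) with 0, 1 to 2, 3 to 5 or more than 5 Ikzf2 transcripts after thinning each cell to 2000 transcripts, in the 10 groups of mouse and sorted population, with the number of cells above each bar. Cells with more than 5 transcripts are 22 of 186 in TBGR CD122+ and 24 of 137 in C-myc D/DCd4 CD122+ cells, and none in TBGR T-bet high cells.

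Whether relatives were found in the same cells as Ikzf2 was read within each group, which holds sorted population and mouse fixed. Among CD122+ cells of the TBGR mouse, Ikzf1 was found in 71 of 155 cells with Ikzf2 (45.8%) and in 17 of 31 without (54.8%). Ikzf3 was found in 14 of the 155 (9.03%) and in 3 of the 31 (9.68%). In T-bet int cells of the TBGR mouse Ikzf3 was found in 12 of 128 cells with Ikzf2 (9.38%) and 9 of 43 without (20.9%). The widest gap for Ikzf1 was in CD122+ cells of the C-myc fl/fl mouse, with 40 of 74 cells with Ikzf2 (54.1%, 42.1 to 65.7) and 14 of 48 without (29.2%, 17.0 to 44.1). In CD122- cells of the C-myc D/DCd4 mouse Ikzf3 was found in 5 of 52 cells with Ikzf2 and 1 of 76 without. These shares were not tested for a difference, so whether Ikzf2 and its relatives tend to share cells is not decided here.

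Co-repressor complexes through which Ikaros proteins act were followed as a list of 18 genes, all of them in the tables. In the TBGR mouse 16 passed the minimum in each step, and 1 was called higher at the CD122+ step, none at the T-bet int step and 1 lower at the T-bet high step, where 11.4%, 4.77% and 14.7% of all genes were called. The median log2 ratio of the list at these steps was 0.33, −0.13 and −0.34, near the 0.28, 0.05 and −0.13 of all genes. Gatad2a, a subunit of NuRD, rose at the CD122+ step from 86.7 to 184 CPM, a log2 ratio of 1.08 that was 0.81 relative to the median. It was the 1 of 13 called at this step in the C-myc fl/fl mouse (1.01, but 0.47 relative to the median), where 6.61% of all genes were called, and in the C-myc D/DCd4 mouse it (1.07) and Mbd2 (1.11) were the 2 of 12, where 19.3% were. Hdac2, a histone deacetylase, fell by 1.03 at the T-bet high step of the TBGR mouse, from 108 to 52.5 CPM, and by less relative to the median (−0.90). Between genotypes Smarca4, a chromatin remodelling ATPase, was higher in CD122- cells of the knockout (1.31, or 0.86 relative to the median), and Hdac1 fell by 1.36 in its CD122+ cells, from 112 to 43.3 CPM. These were 1 of 13 and 1 of 12 passing, against 12.8% and 21.3% of all genes called. Chd4, the remodelling ATPase of NuRD, was at 349, 501, 442 and 269.6 CPM along the TBGR populations and was not called.

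The genes that act on Ikaros proteins themselves, a list of 11 with cereblon, its ligase partners, casein kinase II and protein phosphatase I, showed 1 call in the 9 comparisons, in which 0.408% to 21.3% of all genes were called. This was Csnk2b, the regulatory subunit of casein kinase II, which was higher by 1.43, or 0.97 beyond the median, in CD122- cells of the knockout, where 12.8% of all genes were called. Between 7 and 8 of these genes passed the minimum in each comparison. Crbn, the substrate receptor through which thalidomide analogues degrade Ikaros and Aiolos, had 14.3, 38.1, 29.4 and 24.1 CPM along the TBGR populations.

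Of 18 genes described as regulated by Ikaros factors in lymphocytes, 17 are listed in the tables and between 2 and 5 passed the minimum in a comparison. Called were 1 of 5, 2 of 4 and 2 of 3 at the TBGR steps, 0 of 2 at each C-myc fl/fl step, 2 of 3 at the C-myc D/DCd4 step, and between genotypes 1 of 4 in CD122- and 1 of 2 in CD122+ cells. So few genes cannot be set against the 0.408% to 21.3% of all genes called. Cd4 fell by 3.28 at the CD122+ step of the TBGR mouse, from 585 to 59.9 CPM, and by a further 1.67 at the T-bet int step. Cd8a rose there by 2.03 and fell by 1.91 at the T-bet high step. Il7r, the receptor chain for IL-7, rose at the T-bet high step by 1.89, from 285 to 1056 CPM, where Ikzf2 fell. In the C-myc D/DCd4 mouse Dntt, which adds bases to TCR junctions, went from 206 to 1 transcripts at the CD122+ step, a log2 ratio of −7.01 with an interval of −12.90 to −5.10. Bcl2, which protects from apoptosis, rose there by 2.24, from 265 to 1252 CPM, and was 1.74 higher than in CD122+ cells of the C-myc fl/fl mouse. Dntt was 1.63 higher in CD122- cells of the knockout than of the C-myc fl/fl mouse, or 1.18 relative to the median. Cd4, Cd8a and Dntt also belong to the double positive thymocyte list given above, and none of these changes was tested for a tie to a family member.

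Ikzf2 is known to follow strong TCR signals, so agonist selection genes were set beside it, as a list of 13. At the CD122+ step of the TBGR mouse 12 passed and 5 were called higher and 2 lower (Cd5 at −1.44 and Nr4a3 at −1.13), against 11.4% of all genes called, with a median log2 ratio of 0.19 against 0.28. Nr4a2 rose by 1.95, Pdcd1, which encodes PD-1, by 1.92, Id3 by 1.91 and Egr2 by 1.54, beside 1.97 for Ikzf2. At the T-bet int step 4 of 11 were called lower and none higher, against 4.77% of all genes called, among them Tnfrsf9 (−1.92) and Nr4a1 (−1.50), while Ikzf2 had −0.35. Ikzf2 was thus lower by less than these genes. At the T-bet high step 5 of 9 were called lower and none higher, against 14.7% of all genes called, with a median of −1.13 against −0.13. Id3 went from 374 to 5 transcripts, a log2 ratio of −5.21 (−6.98 to −4.11), and Nr4a2 and Pdcd1 fell by 4.04 and 3.58, beside 3.51 on the log2 scale by which Ikzf2 fell. In the C-myc fl/fl mouse 4 of 7 were called higher at the CD122+ step (median 1.73 against 0.55), none of 6 at the T-bet int step, and 2 of 3 lower at the T-bet high step, Pdcd1 (−2.84) and Id3 (−1.78). Of all genes 6.61%, 0.408% and 3.65% were called at these steps.

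In the C-myc D/DCd4 mouse 6 of 9 agonist selection genes were called higher at the CD122+ step and none lower, against 19.3% of all genes called, with a median of 1.56 against 0.05. Tnfrsf9, which encodes 4-1BB, rose there from 18.3 to 407 CPM, a log2 ratio of 4.43, and Nr4a2 by 3.96, both more than Ikzf2 at 1.97. Against the C-myc fl/fl mouse, 2 of 6 were called higher in CD122- cells, with 12.8% of all genes called: Cd69 (1.61, or 1.16 relative to the median) and Nr4a1 (1.24, but 0.79 relative to it). In CD122+ cells 5 of 10 were called higher and none lower, against 21.3% of all genes called, with a median of 1.07 against 0.06. Among these were Tnfrsf9 (2.80), Tnfrsf18 (1.93), Cd69 (1.90) and Nr4a2 (1.58), while Ikzf2, at 0.95, was not called. The list was chosen with earlier results of these data known and is no independent evidence of its direction.

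Finally, all 4435 genes with at least 300 transcripts were ranked by how alike their levels were to those of Ikzf2, by Pearson correlation of log2 of CPM plus 10 over the 10 groups. These groups share mice, libraries and depth, so the correlations are descriptions. The most alike were Cyth3 (0.96), Tsc22d1 (0.96), Basp1 (0.96), Nr4a2 (0.95), Pdcd1 (0.95), Ssbp3 (0.94), Igf2r (0.94), Mmd (0.94), Sar1b (0.93) and Nrgn (0.93). Cyth3 shows the pattern, with 13.3, 100.1, 72.7 and 1.42 CPM along the TBGR populations and 13.1 and 102 CPM in the C-myc D/DCd4 mouse. With each library and population as a unit of its own, 8 of these 10 were again among the 10 most alike. The most opposed were Thy1 (−0.87), Ctla2a (−0.82), Galnt10 (−0.75), Klrk1 (−0.74) and Psmb11 (−0.74). Thy1, a surface marker of T cells, was highest in TBGR T-bet high cells at 1153 CPM, where Ikzf2 was lowest. None of the relatives was close to Ikzf2 on this scale, with correlations of 0.08 for Ikzf1, 0.26 for Ikzf3, 0.60 for Ikzf4 and 0.20 for Ikzf5.

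**Figure D5:**
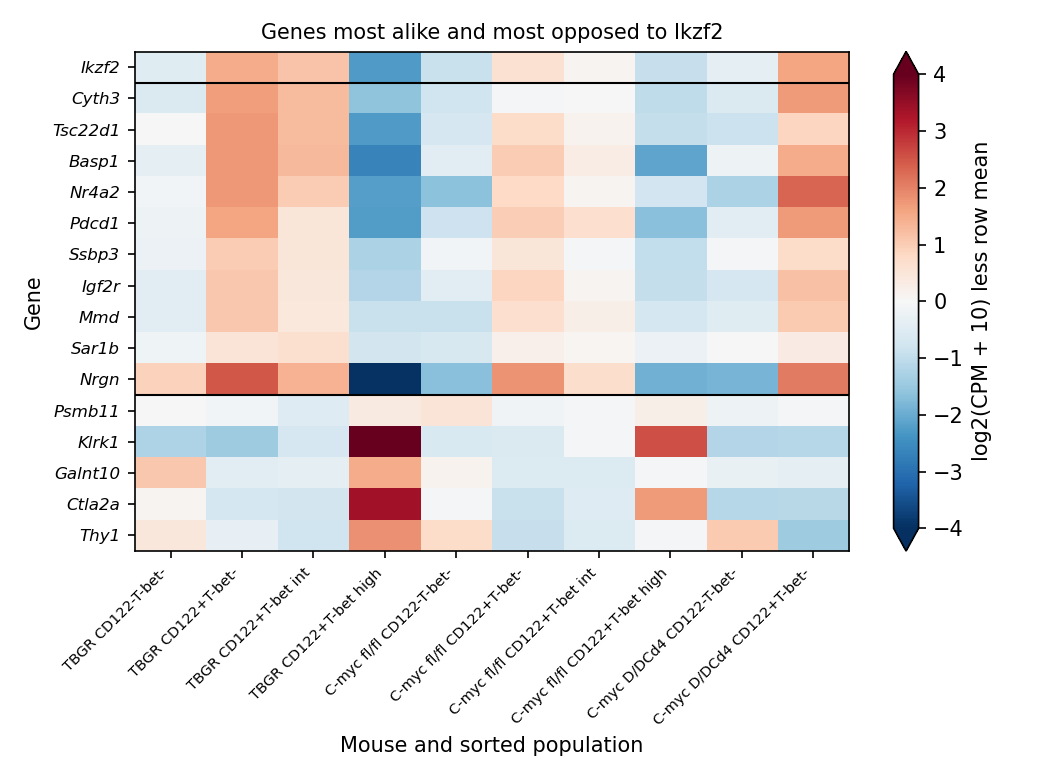
Heat map of log2(CPM + 10) less the mean of each gene over the 10 groups (colour, clipped at the ends of the scale) for Ikzf2 and the genes most alike and most opposed to it, with groups of mouse and sorted population as columns. The alike genes share the low level of Ikzf2 in TBGR T-bet high cells, where Thy1 reaches 1153 CPM.

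The relatives had neighbours of their own. Most like Ikzf1 were Pik3cg (0.95), Zcchc8 (0.92), Gpbp1 (0.91), Exosc10 (0.91) and Arap2 (0.90). Like Ikzf1, Pik3cg, a catalytic subunit of PI3 kinase, was higher in the TBGR and C-myc D/DCd4 mice, at 35.4 to 55.1 CPM, than in the C-myc fl/fl mouse, at 25.7 to 31.7 CPM. Most like Ikzf3 were Dazap2 (0.97), Elmo2 (0.96), Arpc5 (0.94), Cst7 (0.94) and Ostf1 (0.94). Cst7, a protease inhibitor of cytotoxic lymphocytes, went from 4.08 through 34.7 and 75.1 to 92.2 CPM along the TBGR populations and stood at 6.53 and 102 CPM in the C-myc D/DCd4 mouse. None of the 5 genes most like Ikzf1 or Ikzf3 was among the 10 most like Ikzf2.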

How the data were processed

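Count tables of 20 CEL-Seq2 libraries were used. Per the submitters' processing notes, bcl2fastq 2.17.1.14 and BWA 0.6.2-r126 were run. The authors aligned reads to GENCODE VM9 transcripts, merged the isoforms of a gene and loci overlapping by more than 75%, discarded reads with several alignments and counted UMIs of 6 bases; the deposited values are estimated counts, UMI numbers corrected for UMIs drawn more than once, without normalization. All 3270251 values above 0 could come from this conversion, within a relative tolerance of 1e-06.

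Here values were rounded to whole transcripts, wells without a cell were left out, and cells under 2000 transcripts were removed. Each well had received 1 sorted cell, so doublets were not looked for. Sums, CPM, log2 ratios (0.5 transcripts added to each sum), exact 95% Poisson and binomial intervals and library overlaps were computed with python 3.11.15, numpy 2.4.6, scipy 1.17.1, pandas 2.3.3 and matplotlib 3.10.9. Simulated counts were used to check the log2 ratios and calls of 1 comparison and the cover of the ratio intervals. They held counting error only, without further spread between libraries. Thinning, shares and correlations were not checked in this way. No test between groups was run, since 1 mouse per genotype leaves no replicates of a condition. Dixon's test for an outlying library was run on 24 sets of 4 C-myc fl/fl libraries, with a critical value of 0.829 and 0 flagged.

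Named are the 5 members in each comparison, up to 4 called genes per list and comparison with the largest log2 ratio, the 10 most alike and 5 most opposed to Ikzf2, and the 5 most alike to Ikzf1 and to Ikzf3. Chd4 and Crbn were named after their values were seen. Cd5 and Nr4a3 were named outside this rule, as the agonist selection genes called lower at the TBGR CD122+ step. Members and lists were chosen with earlier results of these data known. Alternatives were cell minimums of 1000 and 3000 transcripts, a limit of 2% on Kcnq1ot1, unrounded values, recovered UMIs, ratios relative to the median gene, means of per-cell shares, thinning, 1 transcript added, other gene minimums, each library left out, and, chosen after seeing the data, removal of cells with B cell, Foxp3 or Trdc transcripts.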

Additional observations from a re-analysis of the deposited data

Results flagged for a closer look

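Transcripts of the family were also counted outside the cells used. In 1920 barcodes to which no cell had been sorted, with a median of 17.5 transcripts each, 18 Ikzf1 and 24 Ikzf2 transcripts were counted among 51080, above the limit of 3 that a count of 0 allows. Ikzf3, at 3, Ikzf4, at 2, and Ikzf5, at 0, did not exceed it. In 507 wells with a cell but under 2000 transcripts, 173 Ikzf1, 386 Ikzf2, 50 Ikzf3, 28 Ikzf4 and 19 Ikzf5 transcripts were counted among 446672. The source of these transcripts was not tested.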

How the results depend on the processing

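No paired analysis was possible because no test was run in which replicate numbers could be a block, although the C-myc fl/fl steps were read within shared libraries. Of the member ratios from under 100 transcripts, 189 values under an alternative moved by less than the spread between libraries and 3 by more. Of those from at least 100 transcripts, 338 moved by less than this spread and 10 by more. The latter were, for Ikzf2 at the TBGR T-bet high step, −3.58 (cells of at least 3000 transcripts), −3.61 (thinned), −3.61 (mean of per-cell shares) and −3.38 (relative to the median); when thinned, 0.12 for Ikzf1 at the TBGR T-bet int step, 0.83 for Ikzf3 at the TBGR T-bet high step, 2.51 for Ikzf3 at the C-myc D/DCd4 CD122+ step and 1.49 for Ikzf3 in CD122+ cells between genotypes; 1.47 for the last with mean per-cell shares; and 2.38 for Ikzf3 at the C-myc D/DCd4 CD122+ step without cells carrying Trdc, where it fell under the minimum. No called value changed sign. Ikzf2 at the TBGR T-bet high step was −3.46 without library 1 of T-bet high cells and −3.52 without library 2. With 2 libraries, leaving out 1 gives the value of the other, so values with 1 library left out were not counted above. Of these, for ratios from at least 100 transcripts, 137 moved by less than the spread between libraries and 1 by more. For the other ratios 82 moved by less. Calls ended as given above, and further where Ikzf2 at the C-myc fl/fl CD122+ step overlapped with recovered UMIs (1.41), when thinned (1.31) or without Foxp3 cells (1.58), where its T-bet high step used cells of at least 1000 transcripts (−0.92), and where thinning (−1.36, 2.51, 1.49) or cells of at least 3000 transcripts (2.16) left Ikzf4 or Ikzf3 under the minimum. Ikzf2 shares of cells without thinning were 44.3%, 95.7%, 90.1% and 27.9% in the TBGR, 48.3%, 81.1%, 75.0% and 57.1% in the C-myc fl/fl and 60.9% and 97.8% in the C-myc D/DCd4 populations; thinned to 3000 they moved to 86.6% in TBGR T-bet int, 80.4% and 38.9% in C-myc fl/fl CD122+ and T-bet high, and 49.5% and 95.8% in C-myc D/DCd4 cells, where more transcripts per cell were read and cells under 3000, such as 25 of 122 and 22 of 112 in these C-myc fl/fl populations, were left out. Shares of the family held by Ikzf2 moved by less than the libraries differ with cells of at least 1000 transcripts and with recovered UMIs. With a minimum of 20 transcripts, 1687, 987 and 1680 genes were called at the TBGR steps and 429, 76 and 272 at the C-myc fl/fl steps. At the C-myc D/DCd4 step 1574 were called, and between genotypes 961 and 1436. With 1 transcript these counts were 3503, 2307, 3169, 661, 189, 402, 4002, 2031 and 2577. More genes were then tested, and in some comparisons the share called changed too. At the TBGR CD122+ step it went from 464 of 4057 to 1687 of 9262 genes with 20 transcripts. Relative to the median, 68 genes were called at the C-myc fl/fl CD122+ step (117 before) and 76 between genotypes in CD122- cells (229 before); higher and lower calls were then 52 and 16, and 49 and 27. At the TBGR CD122+ and T-bet high steps they were 221 and 171, and 269 and 254, and at the C-myc fl/fl T-bet high step 42 and 20. With genes of at least 1000 transcripts 5 of the 10 genes most like Ikzf2 were shared, with 1 CPM added 9. No kept cell exceeded 2% of Kcnq1ot1. Depth limits Ikzf3, Ikzf4 and Ikzf5 most: ratios from under 100 transcripts carry wide intervals and were not called.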
